A study of Rattus norvegicus with 6 samples.

Results

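The solute carrier (Slc) superfamily was taken from rat astrocyte expression arrays as every probe whose platform symbol is Slc followed by a number, leaving out the glutamate and glutamine transporter families Slc1a and Slc38a and the lactate transporter Slc16a3. This gave 286 probes for 277 genes, of 22523 probes and 13337 named genes on the array. A detection p-value under 0.05 on at least 3 of the 6 arrays was met by 143 probes for 142 of these genes, and the 142 genes were tested. The other 135 genes were not tested, 98 of them because no array detected them and 37 because only 1 or 2 arrays did. Of those 37, 20 were seen on M337V arrays only, 10 on tTA arrays only and 7 in both genotypes. The share of Slc genes that could be tested was 51.3%, against 56.8% of all genes.

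The cells were cultured primary rat astrocytes. M337V cells came from rats carrying both GFAP-tTA and TRE-TDP43 M337V, and tTA cells from rats carrying GFAP-tTA alone. GFAP-tTA puts the tetracycline-controlled transactivator under the promoter of the astrocyte intermediate filament gene Gfap, so both groups carry the transactivator, and both were sampled after withdrawal of doxycycline (Dox), which lets the transactivator switch on TRE-driven genes. M337V is a mutation of TDP-43, an RNA-binding protein linked to amyotrophic lateral sclerosis. RNA was taken on days 3, 4 and 6 from withdrawal. A single array was run for every genotype on each day, so each genotype has 3 arrays that differ in day. The labels do not say whether days or genotypes came from separate cultures, litters or animals, and p-values measure only the spread between these 6 arrays. The rat Tardbp probe, the array's only one for the TDP-43 gene, differed by 0.23 ± 0.10 log2 (SE, adjusted p = 0.187 in limma); whether it reads the transgene is not known here, so it does not check the labels.

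Solute carriers move small molecules through membranes either down a gradient or by coupling to a second solute, most often sodium, protons or chloride. In the brain, astrocytes use them to take up neurotransmitters and potassium, to pass lactate and other fuels to neurons, and to set pH and osmotic balance. Mitochondrial carriers of the Slc25 family link the cytosol to oxidative metabolism, and carriers in the Golgi and lysosome load nucleotide sugars and release digested amino acids, peptides and metals. Cultures of primary astrocytes can also hold microglia, oligodendrocyte precursors, ependymal cells, neurons and meningeal fibroblasts, each with carriers of its own.

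Values are log2 of the background-corrected, quantile-normalized bead signal of a gene's brightest probe, and a fold is a fold of that signal. A gene is said to have risen or fallen in M337V cells where limma's moderated test, with day in the model, gave a Benjamini-Hochberg adjusted p under 0.05 over all 7580 genes. Where a group has arrays on which the probe was not well above background, the fold is given as a bound: the mean of the brighter group against the higher of the dim value and the lowest detected signal on each array. The mean signal per array was 377 to 554 and 43.8% to 48.3% of probes were detected on each. Correlations between arrays were 0.979 to 0.992 within a genotype and 0.932 to 0.972 between genotypes. The small number of arrays limits the precision of every value below.

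The promoters of 6 carriers that rose or fell in M337V cells are shown first, as those of amino acid, metal and osmolyte carriers on which the results below turn. Each runs from 250 bases before to 50 bases after the RefSeq start of the gene on GRCr8, in the direction of transcription. Capitals mark matches, on either strand, to the TATA box TATAAA, to CCAAT, to the GC box GGGCGG, to the metal response core TGCACNC or TGCGCNC, and to the tonicity element TonE. Matches to GAGGAAGT, the core bound by PU.1, and to the amino acid response core TGATGNAA were searched too, and these 6 stretches hold neither. Slc39a12 and Slc7a7 are genes that rose, and Slc5a3, Slc6a6, Slc39a13 and Slc40a1 are genes that fell.
Slc39a12 (chr17:82262107-82262406, plus strand): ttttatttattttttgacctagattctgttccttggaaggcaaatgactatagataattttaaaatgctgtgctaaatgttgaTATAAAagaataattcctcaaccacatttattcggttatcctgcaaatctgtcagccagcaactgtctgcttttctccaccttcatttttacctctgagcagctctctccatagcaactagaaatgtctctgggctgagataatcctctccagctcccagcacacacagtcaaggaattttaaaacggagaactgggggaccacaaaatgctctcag
Slc7a7 (chr15:31835634-31835933, minus strand): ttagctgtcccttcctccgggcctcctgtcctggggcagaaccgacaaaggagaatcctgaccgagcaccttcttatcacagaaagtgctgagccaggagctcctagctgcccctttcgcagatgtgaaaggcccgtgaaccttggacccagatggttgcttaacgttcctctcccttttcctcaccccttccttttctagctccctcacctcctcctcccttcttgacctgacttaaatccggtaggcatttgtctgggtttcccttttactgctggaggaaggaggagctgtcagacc
Slc5a3 (chr11:44799537-44799836, plus strand): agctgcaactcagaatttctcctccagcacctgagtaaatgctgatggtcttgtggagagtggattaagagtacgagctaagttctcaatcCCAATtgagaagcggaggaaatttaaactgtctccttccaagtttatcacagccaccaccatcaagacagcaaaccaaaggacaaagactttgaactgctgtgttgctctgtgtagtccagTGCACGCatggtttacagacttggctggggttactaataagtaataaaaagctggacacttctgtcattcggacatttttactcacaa
Slc6a6 (chr4:125752252-125752551, plus strand): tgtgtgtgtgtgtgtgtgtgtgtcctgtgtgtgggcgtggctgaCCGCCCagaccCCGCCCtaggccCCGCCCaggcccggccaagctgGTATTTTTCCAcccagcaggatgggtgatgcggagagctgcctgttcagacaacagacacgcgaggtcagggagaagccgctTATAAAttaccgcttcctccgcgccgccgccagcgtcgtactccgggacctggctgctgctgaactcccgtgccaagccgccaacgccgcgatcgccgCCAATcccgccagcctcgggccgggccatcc
Slc39a13 (chr3:97502995-97503294, minus strand): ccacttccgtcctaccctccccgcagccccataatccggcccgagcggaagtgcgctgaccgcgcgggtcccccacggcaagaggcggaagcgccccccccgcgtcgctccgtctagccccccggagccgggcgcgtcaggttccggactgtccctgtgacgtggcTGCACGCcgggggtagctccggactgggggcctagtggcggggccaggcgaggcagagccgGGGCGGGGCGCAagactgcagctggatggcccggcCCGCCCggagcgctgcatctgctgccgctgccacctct
Slc40a1 (chr9:55543411-55543710, minus strand): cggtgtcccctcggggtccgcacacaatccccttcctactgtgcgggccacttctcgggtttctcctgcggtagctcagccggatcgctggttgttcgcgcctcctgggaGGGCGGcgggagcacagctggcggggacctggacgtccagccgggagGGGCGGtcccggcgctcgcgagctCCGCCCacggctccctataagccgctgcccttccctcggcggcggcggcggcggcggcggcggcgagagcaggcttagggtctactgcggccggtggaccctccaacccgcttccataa
Entries for Slc7a3, Slc11a1 and Slc15a3 were not used here.

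In these stretches Slc39a12 holds a TATAAA 167 bases before its start and Slc7a7 holds none of the motifs. Slc6a6 holds 3 GC boxes, a TATAAA 79 bases before its start, a CCAAT just after it and a TonE match. Slc39a13 holds 2 metal response cores and 2 GC boxes, of which 1 core and 1 box share a base, and Slc40a1 holds 3 GC boxes. Of the 113 tested Slc genes with a promoter entry, 63.7% hold a GC box, against 34.9% of all 27457 rat promoters in the table. The metal response core was in 35.4% of tested Slc promoters, against 25.0% of all promoters, and CCAAT in 39.8% against 37.7%. Of the 19 genes that fell and have an entry, 15 hold a GC box, and of the 7 that rose 2 do. These shares describe letters in fixed windows.

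Slc genes rose or fell about as often as other genes did, with falls the more frequent direction. The share called was 22.5% (32 of 142), against 19.6% of all genes tested. There were 11 rises, where 9.75% of all genes rose, and 21 falls, where 9.85% of all genes fell. A fitted difference of at least 2-fold was met by 5 rises and 2 falls, and 2 of these 7 genes, Slc11a1 and Slc26a7, were undetected in 1 genotype and have bounds under 2-fold. The arrays of the genotypes did not overlap for 57 Slc genes, higher in M337V for 17 and lower for 40, where 34.0% of all genes do not overlap. The median difference of the tested Slc genes was -0.10 log2, against -0.05 for all genes. Of the 32 calls, 27 were for genes detected on all 6 arrays. The other 5, for Slc15a3, Slc7a7, Slc11a1, Slc26a1 and Slc26a7, met the detection minimum only through the genotype in which they were higher, so they had to differ and do not count as support. Of the 142 genes, 83 had the same sign on all 3 days. With cyclic loess in place of quantile normalization 44.4% of the Slc calls were rises, and with median scaling 42.9%, against 34.4% in the values reported here. The calls over all genes shifted too. There were 825 rises and 568 falls with cyclic loess, 658 and 460 with median scaling, and 739 and 747 in the values reported here.

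The largest rises exceeded the largest falls. Without the day 4 arrays 6 rises and 1 fall passed. They were the calls for Slc7a3, Slc39a12, Slc15a3, Slc7a7, Slc11a1, Slc25a21 and Slc39a13. The other 20 falls then had adjusted p of 0.0575 to 0.238 and the other 5 rises 0.0791 to 0.178. Without day 3 there were 8 rises and 15 falls in all, and without day 6 8 rises and 12 falls. With day left out of the model 6 rises and 14 falls passed in all, and the calls lost were those of Slc6a15, Slc44a4, Slc26a1, Slc22a17, Slc25a5, Slc6a6, Slc39a6, Slc25a27, Slc35c1, Slc25a35, Slc16a13 and Slc25a15, at adjusted p of 0.0547 to 0.221. With median scaling 9 rises and 12 falls passed, and the calls lost were those of Slc22a17, Slc25a5, Slc26a1, Slc12a5, Slc16a13, Slc25a15, Slc25a27, Slc25a35, Slc35c1, Slc35d2, Slc35e3, Slc40a1 and Slc6a6, at adjusted p of 0.0515 to 0.286. All 32 kept their sign under every alternative that tested them. Calls over all genes dropped too, from 19.6% in the values reported here. The share was 8.32% without day 4, 13.9% without day 3 and 13.5% without day 6, where Slc genes had 4.93%, 16.2% and 14.1%. Without day 4, 384 of all genes rose and 247 fell. With day left out of the model 12.7% of all genes and 14.1% of Slc genes passed, and with median scaling 14.7% and 14.8%.

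**Figure D1:**
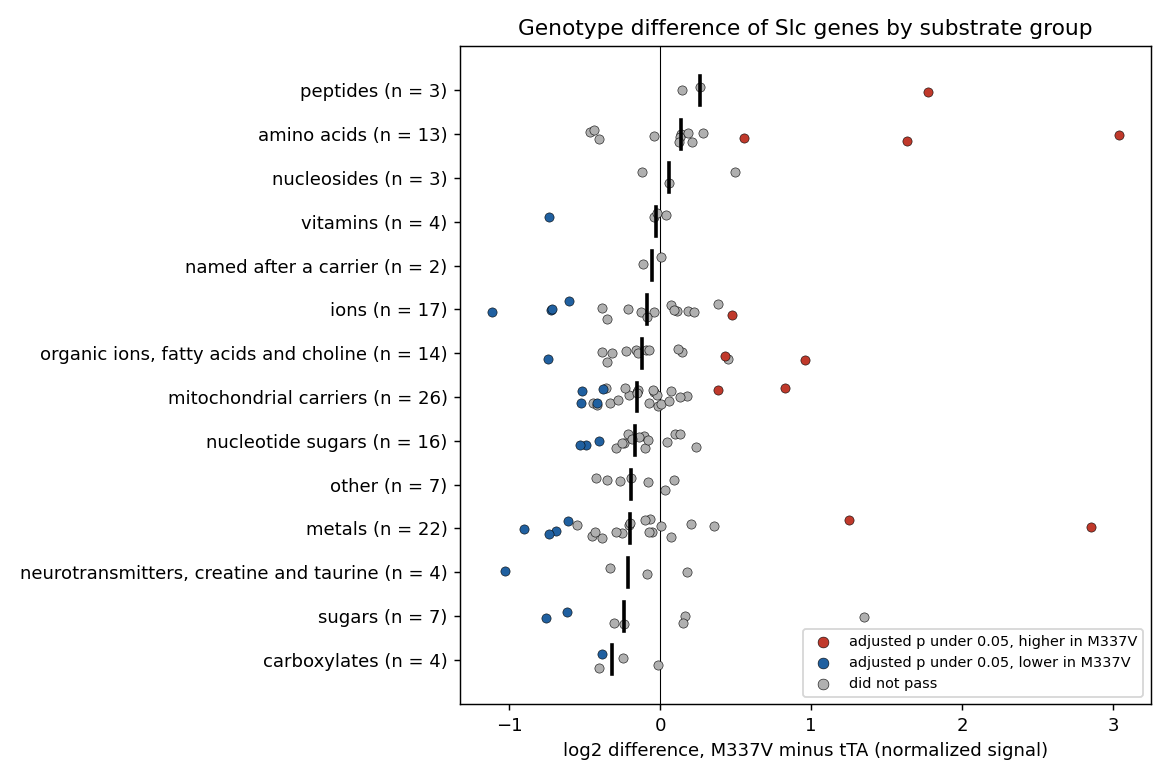
Genotype difference of each tested Slc gene, grouped by substrate. Each point is 1 gene, the x axis is the log2 difference M337V minus tTA in normalized signal, black bars are group medians, and colour marks adjusted p under 0.05. Peptide and amino acid carriers have medians of 0.26 and 0.14, and the farthest points to the right are Slc7a3 and Slc39a12.

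The largest changes of the Slc genes tested were those of Slc7a3 and the zinc carrier Slc39a12. Their order turned in some alternatives, among them without day 4, without day 6 and with the deposited values, and Slc39a12 was then the larger. Slc7a3 encodes the cationic amino acid transporter CAT3 for arginine and lysine. Its log2 signal was 9.25, 10.10 and 10.23 on days 3, 4 and 6 in M337V cells, against 7.26, 6.67 and 6.54 in tTA cells. All M337V arrays lay above all tTA arrays, and the gene was detected on all 6. The rise was 3.04 ± 0.33 log2 (SE), or 8.21-fold, at an adjusted p of 0.00401 in limma. Slc6a15, a sodium-dependent carrier of branched-chain amino acids and proline, was at 10.27, 10.53 and 10.82 in M337V cells, against 9.69, 9.99 and 10.29 in tTA cells. It was higher in M337V on each day while the ranges over days overlapped, and it rose by 0.55 ± 0.09 log2 (adjusted p = 0.0152; 0.0881 without day 4).

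Slc7a7 encodes the y+LAT1 light chain, which exports cationic amino acids and pairs with the heavy chain Slc3a2. It was at 6.04, 5.79 and 7.34 in M337V cells, against 4.73, 4.90 and 4.64 in tTA cells, where no array detected it. The day 6 array stood highest. The rise was at least 2.63-fold (adjusted p = 0.0269 in limma, and 0.0590 without day 3). Of 30 amino acid carriers on the array 13 were tested, and these 3 rose, where 9.75% of all genes rose. Slc7a7 met the detection minimum only through the M337V arrays, so it does not count as support here. The heavy chain Slc3a2 had a difference of -0.40 ± 0.11 log2 (adjusted p = 0.0629), and the LAT1 light chain Slc7a5, which imports large neutral amino acids, -0.44 ± 0.12 (adjusted p = 0.0581). Both missed the threshold here and passed it in 6 and 7 of 15 alternatives. Slc7a1, the widely expressed cationic amino acid transporter CAT1, was at 0.13 ± 0.10 (adjusted p = 0.41). The proline transporter Slc6a7, detected on 1 M337V array, was at least 1.23-fold lower (adjusted p = 0.0691), and the glycine transporter Slc6a9, detected on 2 tTA arrays, at least 1.18-fold higher (adjusted p = 0.24). The cystine carrier Slc7a11 and the astrocytic alanine-serine carrier Slc7a10 were detected on no array.

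Genes of the amino acid response, through which cells react to amino acid shortage by raising carriers and synthesis enzymes, were set beside these carriers. Of 8 tested, 4 fell in M337V cells, where 9.85% of all genes fell. Asns, asparagine synthetase, fell by 0.56 log2, Cth, which makes cysteine, by 0.80, the stress-induced factor Ddit3 by 0.66, and Atf4, the transcription factor of the response, by 0.41. Their adjusted p in limma were 0.0118 to 0.0426. The rest did not pass, and most of them were positive. Phgdh was at 0.43 log2, Psph at 0.22, Shmt2 at 0.20 and Atf3 at -0.11 (adjusted p in limma 0.0707 to 0.559).

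Peptide carriers were led by Slc15a3, a proton-coupled carrier of peptides and histidine in lysosomes of immune cells. Its signal was 5.98, 6.19 and 7.30 in M337V cells, against 4.58, 4.87 and 4.70 in tTA cells, where it was on no array above background. The rise was at least 2.81-fold (adjusted p = 0.0109), with the day 6 array highest. Its paralogue Slc15a4, also lysosomal, differed by 0.26 ± 0.10 log2 (adjusted p = 0.117), and the astrocytic peptide transporter Slc15a2 by 0.14 ± 0.14 (adjusted p = 0.533). Of the 4 peptide carriers on the array 3 were tested.

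Metal carriers held 2 rises, where 9.75% of all genes rose, and 4 falls, where 9.85% fell. Slc11a1, among the rises, met the detection minimum only through the M337V arrays and does not count as support. Slc39a12 encodes ZIP12, a zinc importer expressed in brain. Its signal was 10.45, 10.73 and 11.06 in M337V cells, against 7.53, 7.97 and 8.19 in tTA cells. The lowest M337V array was above the highest tTA array, and both genotypes increased from day 3 to day 6. The rise was 2.85 ± 0.10 log2 (SE), or 7.21-fold, at an adjusted p of 0.000209. Slc11a1, the NRAMP1 exporter that takes iron and manganese out of phagosomes in macrophages, was at 5.32, 5.57 and 6.46 in M337V cells and 4.49, 4.63 and 4.47 in tTA cells, where no array detected it. It rose at least 1.73-fold (adjusted p = 0.0217).

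The falls were of 3 zinc carriers and the iron exporter. Slc39a13, ZIP13, a zinc carrier of intracellular vesicles and the Golgi linked to connective tissue formation, was at 8.51, 8.49 and 7.99 in M337V cells, against 9.38, 9.16 and 9.14 in tTA cells. The groups did not overlap and the fall was 0.90 ± 0.13 log2 (adjusted p = 0.00892). Slc40a1, ferroportin, the known cellular iron exporter, was at 6.74, 6.60 and 6.91 in M337V cells, against 7.73, 7.34 and 7.39 in tTA cells, a fall of 0.74 ± 0.13 (adjusted p = 0.0163). The plasma membrane importers Slc39a6 (ZIP6) and Slc39a10 (ZIP10) fell by 0.69 ± 0.10 and 0.61 ± 0.10 (adjusted p = 0.0095 and 0.0157). Without day 4 the adjusted p of Slc40a1, Slc39a6 and Slc39a10 was 0.0602 to 0.0773, and that of Slc39a10 was 0.0545 without day 6. With median scaling Slc40a1 no longer passed.

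Of 29 metal carriers 22 were tested, and the median difference was -0.20 log2, with 16 genes negative and 6 positive. The zinc transporters Slc39a8 (-0.55 ± 0.17, adjusted p = 0.0739) and Slc39a7 (-0.45 ± 0.13, adjusted p = 0.0657) and the heme carrier Slc48a1 (-0.43 ± 0.12, adjusted p = 0.064) did not pass. The main cellular iron importer Slc11a2 was at -0.25 ± 0.13 (adjusted p = 0.228) and the manganese exporter Slc30a10 at 0.00 ± 0.14 (adjusted p = 0.989), detected on 2 arrays of each genotype. The summed normalized signal of fibroblast and meningeal markers was 17774 to 30579 in M337V cells, against 39735 to 56457 in tTA cells. Col1a2 and Fn1 were the brightest of these markers on every array. Of its 9 tested markers 5 fell and 3, Igf2, Lum and Mgp, rose, and the part of these markers in the falls was not tested.

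**Figure D2:**
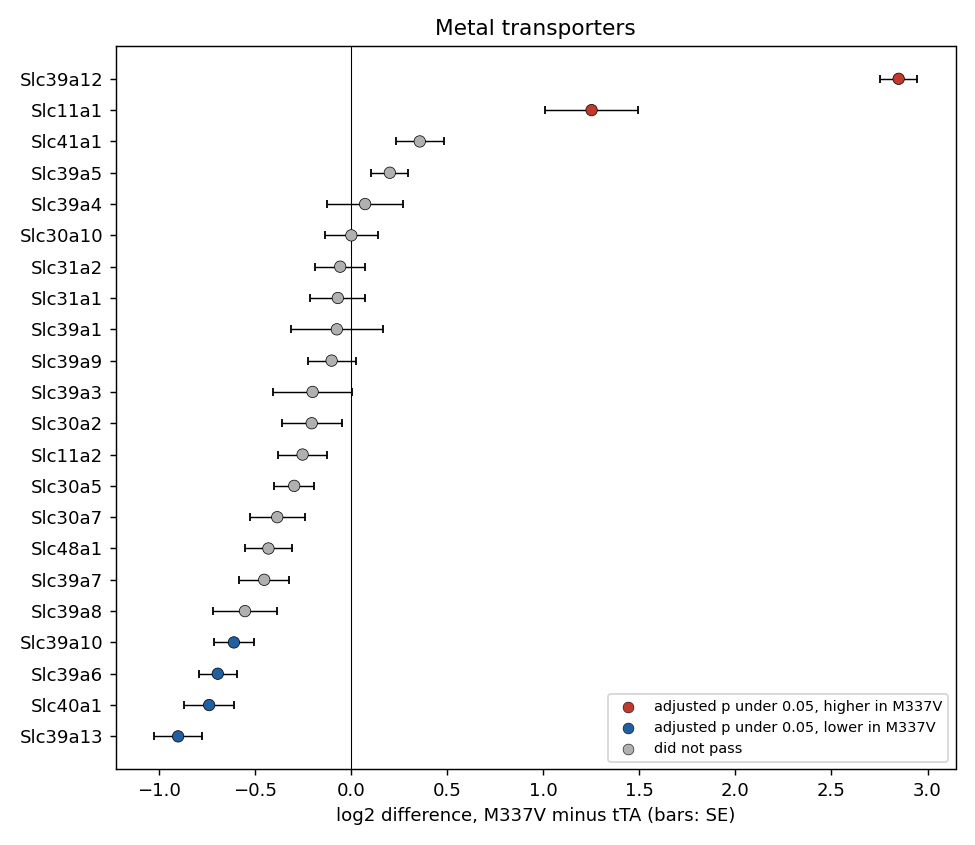
Log2 difference M337V minus tTA of the 22 tested metal carriers, with its SE as bars. Slc39a12 at 2.85 and Slc11a1 at 1.25 lie above 0, and Slc39a13, Slc40a1, Slc39a6 and Slc39a10 lie below it, at -0.90 to -0.61.

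Sugar and osmolyte carriers fell where they passed. Slc5a3, the sodium-coupled importer of myo-inositol, was at 9.66, 9.55 and 9.52 in M337V cells, against 10.19, 10.30 and 10.48 in tTA cells, and fell by 0.75 ± 0.12 log2 (adjusted p = 0.0128). Slc37a4, which carries glucose 6-phosphate into the endoplasmic reticulum, was at 8.96, 8.85 and 9.004 in M337V cells, against 9.62, 9.59 and 9.45 in tTA cells, and fell by 0.61 ± 0.11 (adjusted p = 0.0163). Without day 4 their adjusted p was 0.0643 to 0.100 and without day 3 that of Slc37a4 was 0.0541. Slc6a6, the taurine transporter, was at 6.45, 5.60 and 6.01 in M337V cells, against 7.43, 7.12 and 6.57 in tTA cells. Taurine, like myo-inositol, is an organic osmolyte of brain cells. Slc6a6 fell by 1.02 ± 0.19, or 2.03-fold (adjusted p = 0.0194), and did not pass without day 3 (0.0581), without day 4 (0.0589) or with median scaling.

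Of 22 sugar carriers 7 were tested. Slc2a5, the fructose transporter GLUT5, is known as a microglial gene in brain. It was at 5.59, 5.99 and 7.20 in M337V cells, against 5.23, 4.74 and 4.74 in tTA cells, where 1 array detected it. Its difference was 1.35 ± 0.38 log2, at least 2.28-fold, and did not pass (adjusted p = 0.0614), while it passed in 6 of 14 alternatives. Slc2a1, the main glucose transporter of endothelium and astrocytes, was detected on 1 tTA array only and Slc2a4 on no array. The neuronal glucose transporter Slc2a3 was at -0.24 ± 0.17 log2 (adjusted p = 0.371). Genes of glucose and lactate metabolism included 1 of 14 that passed: Pfkl, a phosphofructokinase, rose by 0.48 log2 (adjusted p = 0.0297).

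Among carboxylate carriers 4 of 10 genes were tested. Slc16a13, of the monocarboxylate family, fell by 0.39 ± 0.10 log2 (adjusted p = 0.0496, the closest below the threshold of all called Slc genes). Its adjusted p was 0.109 to 0.177 without any one day. Slc16a1, the lactate transporter MCT1, was at -0.01 ± 0.10 log2 (adjusted p = 0.944). The chaperone Emb, which carries monocarboxylate transporters to the membrane, was at 9.82, 9.02 and 8.86 in M337V cells, against 10.45, 10.11 and 9.83 in tTA cells, and fell by 0.90 ± 0.12 log2 (adjusted p = 0.00875). Its counterpart Bsg was at -0.30 ± 0.11 (adjusted p = 0.112). Citrate and dicarboxylate carrier Slc13a3 had a difference of -0.41 ± 0.26 (adjusted p = 0.324).

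Ion carriers had 17 of 45 members tested, and 1 rose and 4 fell, where 9.75% of all genes rose and 9.85% fell. In these counts Slc26a1 met the detection minimum only through the M337V arrays and Slc26a7 only through the tTA arrays. Neither counts as support. Slc26a7, a chloride and bicarbonate exchanger, read 4.45, 4.45 and 4.48 in M337V cells, where no array detected it, against 6.00, 5.72 and 5.01 in tTA cells. It fell by at least 1.54-fold (adjusted p = 0.0189 in limma). Slc12a4, the potassium chloride cotransporter KCC1, was at 8.01, 7.71 and 7.77 in M337V cells, against 8.79, 8.54 and 8.33 in tTA cells, and fell by 0.72 ± 0.11 log2 (adjusted p = 0.0104). Slc12a5, the neuronal KCC2, was at 5.52, 5.92 and 5.83 in M337V cells, against 6.38, 6.68 and 6.36 in tTA cells, a fall of 0.72 ± 0.11 (adjusted p = 0.0119, and 0.0620 with median scaling). Of 9 tested neuronal markers 5 rose, where 9.75% of all genes rose. Among them Ina and Snap25 met the detection minimum only through the M337V arrays and do not count as support. Summed signals of the 9 were 5471 to 6315 in M337V cells, against 2339 to 2881 in tTA cells. The part of neurons in the fall of Slc12a5 was not tested.

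Slc4a2, the anion exchanger AE2 that exchanges chloride for bicarbonate, fell by 0.60 ± 0.12 log2 (adjusted p = 0.024). The sulfate carrier Slc26a1 rose by at least 1.13-fold (adjusted p = 0.0344), a gene that no tTA array detected. Without day 4 the 4 falls had adjusted p of 0.0650 to 0.0947 and Slc26a1 had 0.0873. Slc26a1 also missed the threshold without day 3 (0.105) or day 6 (0.110), Slc26a7 without day 3 (0.0538) and Slc4a2 without day 6 (0.0744). The sodium bicarbonate cotransporter Slc4a4, an astrocyte pH regulator, was at -0.13 ± 0.12 (adjusted p = 0.515). Of 11 tested proteins that work beside these carriers or belong to other transporter families, 3 rose and 3 fell. Of all genes 9.75% rose and 9.85% fell. Fxyd1, a regulator of the sodium pump, rose by 0.60 ± 0.10 log2 (adjusted p = 0.0151), and Car2, a carbonic anhydrase that makes bicarbonate, rose at least 1.91-fold (adjusted p = 0.0229). Car9, a carbonic anhydrase induced by hypoxia and detected on 1 M337V array, fell by at least 4.80-fold (adjusted p = 0.00151), more than any other on that list. Slco2b1, an organic anion transporter of the separate Slco family that microglia carry, rose at least 2.27-fold (adjusted p = 0.0274). No tTA array detected Slco2b1, so it met the detection minimum only through the M337V arrays and does not count as support. Slco1c1, a thyroid hormone carrier of the same family, fell by 1.16 ± 0.12 log2 (adjusted p = 0.00357). The third fall, of Emb, is given above.

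Mitochondrial carriers had 26 of 33 genes tested, and 2 rose and 4 fell, where 9.75% of all genes rose and 9.85% fell. Slc25a21, the 2-oxodicarboxylate carrier, was at 6.35, 6.49 and 6.49 in M337V cells, against 5.34, 5.92 and 5.58 in tTA cells, a rise of 0.83 ± 0.12 log2, or 1.78-fold (adjusted p = 0.0103). Slc25a5, the ADP and ATP exchanger ANT2, was at 12.46, 12.60 and 12.70 in M337V cells, against 12.04, 12.26 and 12.31 in tTA cells, and rose by 0.38 ± 0.09 (adjusted p = 0.0447). Its paralogue Slc25a4, the exchanger ANT1 of heart and brain, was at 0.00 ± 0.10 (adjusted p = 0.981). Slc25a38, which supplies glycine for heme synthesis, fell by 0.52 ± 0.11 (adjusted p = 0.0286), and the uncoupling protein Slc25a27 (UCP4) by 0.52 ± 0.12 (adjusted p = 0.034). The orphan carrier Slc25a35 and the ornithine carrier Slc25a15 fell by 0.42 ± 0.10 and 0.38 ± 0.10 (adjusted p = 0.0434 and 0.0468).

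Apart from that of Slc25a21, the mitochondrial calls were lost when single days were left out. Without day 4 the adjusted p of the 4 falls was 0.0925 to 0.238 and that of Slc25a5 0.178. Without day 6 they were 0.0765 to 0.14 for the falls and 0.131 for Slc25a5, and without day 3 they were 0.0607 to 0.0956 for Slc25a15, Slc25a27 and Slc25a35 and 0.116 for Slc25a5. The citrate carrier Slc25a1, which exports citrate for lipid synthesis, was at -0.44 ± 0.13 log2 and did not pass (adjusted p = 0.0675), while it passed in 6 of 15 alternatives.

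Golgi carriers of nucleotide sugars had 16 of 20 genes tested, and 3 fell, where 9.85% of all genes fell: Slc35e3, an orphan of the family, by 0.53 ± 0.12 log2 (adjusted p = 0.037), Slc35d2, which carries UDP-N-acetylglucosamine, by 0.49 ± 0.10 (adjusted p = 0.0223), and Slc35c1, the GDP-fucose carrier, by 0.41 ± 0.10 (adjusted p = 0.0384). Their groups did not overlap. Without day 4 the adjusted p was 0.103 to 0.185, and without day 6 it was 0.0739 to 0.109. Without day 3 Slc35c1 and Slc35d2 had 0.0695 to 0.109. The related Slc35c2 was at -0.29 ± 0.16 (adjusted p = 0.248).

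Carriers of organic ions, fatty acids and choline had 14 of 40 genes tested. Slc44a4, a choline transporter-like protein, was at 6.34, 6.79 and 7.69 in M337V cells, against 5.84, 5.81 and 6.31 in tTA cells, and rose by 0.96 ± 0.18 log2, or 1.94-fold (adjusted p = 0.0196; 0.0791 without day 4). Slc22a17, a receptor for the iron-trafficking protein lipocalin-2, was at 10.44, 10.56 and 10.52 in M337V cells, against 9.82, 10.26 and 10.16 in tTA cells. Its rise of 0.43 ± 0.11 was just inside the threshold (adjusted p = 0.0491), and it was 0.106 to 0.139 without any one day. Slc10a3, an orphan of the bile acid carrier family, fell by 0.74 ± 0.10 (adjusted p = 0.0084; 0.0575 without day 4). The choline transporter Slc44a1 was at 0.45 ± 0.13 (adjusted p = 0.0724).

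The remaining groups were small. Slc5a6, the sodium-dependent transporter of biotin and pantothenate, was at 7.18, 6.87 and 6.91 in M337V cells, against 7.60, 7.67 and 7.90 in tTA cells. It fell by 0.74 ± 0.14 log2 (adjusted p = 0.0195; 0.0928 without day 4 and 0.0585 without day 6), and 4 of 10 vitamin carriers were tested. The folate carrier Slc19a1 was at -0.04 ± 0.10 (adjusted p = 0.809). The creatine transporter Slc6a8 was at -0.33 ± 0.13 (adjusted p = 0.134). Nucleoside carriers had 3 of 9 genes tested, none with an adjusted p under 0.0961: Slc28a2 at 0.50 ± 0.17, the equilibrative Slc29a1 at -0.12 ± 0.13 and the lysosomal Slc29a3 at 0.06 ± 0.09. The lysosomal sialic acid exporter Slc17a5 was at -0.09 ± 0.14 (adjusted p = 0.687).

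**Figure D3:**
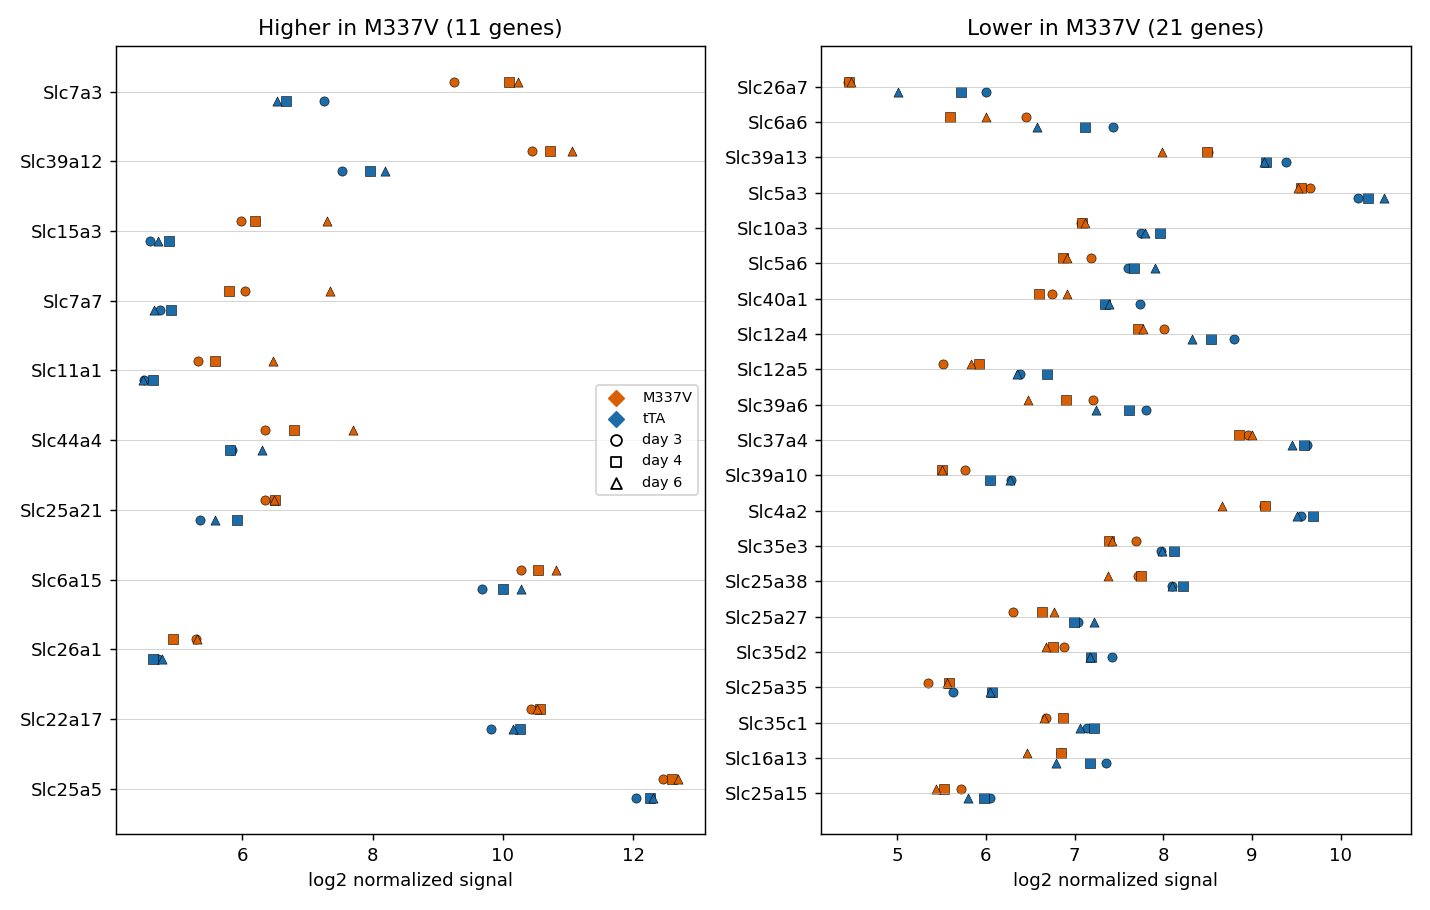
Log2 normalized signal on each array of the 11 Slc genes that rose and the 21 that fell. Orange is M337V and blue tTA, and the marker gives the day. The ranges of the genotypes overlap for Slc6a15 and Slc16a13 and are apart for the others.

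Carriers known from single cell types were set beside markers of those types. Of 5 tested Slc genes known from microglia and macrophages, 3 rose (Slc15a3, Slc7a7 and Slc11a1), where 9.75% of all genes rose. All 3 met the detection minimum through the M337V arrays alone, so nothing is read from this count. Slc2a5 and Slc29a3 did not pass. Of 13 tested microglial markers 11 rose, where 9.75% of all genes rose. The median of the 13 was 4.80 log2, and 3.65, 4.61 and 5.30 on days 3, 4 and 6. The summed normalized signal of the 13 was 9361 to 28754 in M337V cells, against 373 to 703 in tTA cells. No tTA array detected C1qa, C1qc, Cx3cr1, Ptprc or Tyrobp. These met the detection minimum only through the M337V arrays and do not count as support. Their differences, which the medians include, are against undetected probes. In bulk RNA, more cells of a type and more RNA per cell cannot be told apart, and the part of microglia in the 3 rises was not tested.

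Of 6 tested carriers known from astrocytes, Slc39a12 rose, where 9.75% of all genes rose, and the urea transporter Slc14a1, Slc15a2, Slc4a4, Slc6a9 and Slc30a10 did not pass. Astrocyte markers were present in both genotypes, with summed signals of 84611 to 87604 in M337V cells, against 71256 to 84005 in tTA cells, and 3 of 9 rose and 1 fell. Other cell-type markers also moved with genotype. Oligodendrocyte lineage markers summed to 7442 to 15957 in M337V cells, against 3411 to 4006 in tTA cells, with 6 of 8 risen, and ependymal markers to 1765 to 2931, against 423 to 851, with 5 of 5 risen. Fibroblast and meningeal markers had 3 risen and 5 fallen of 9, and endothelial markers 2 risen and 1 fallen of 4 at summed signals of 159 to 181 in M337V cells, against 127 to 137 in tTA cells. Set beside all these marker counts, 9.75% of all genes rose and 9.85% fell. No tTA array detected the endothelial marker Esam or the fibroblast marker Lum. Both rises had to differ and do not count as support. The part of these cells in the Slc values was not tested.

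Of the carriers known from neurons, 3 of 10 on the array were tested and Slc12a5 fell. The meningeal carriers on the array, among them Slc6a13, numbered 6 and were too dim to test. Of 3 tested endothelial carriers, Slc7a1, Slc7a5 and Slc16a1, the median was -0.01 log2. Lysosomal and endosomal carriers had 7 tested genes, of which Slc11a1 and Slc15a3 rose, where 9.75% of all genes rose. These are the same genes counted among microglial carriers. Both met the detection minimum through the M337V arrays alone, so nothing is read from this count. The lysosomal Slc15a4, Slc17a5, Slc29a3 and Slc48a1, given above, did not pass, nor did Slc46a1 at -0.02 ± 0.14 log2 (adjusted p = 0.939 in limma).

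Differences at each day rest on 1 array per genotype and have no test. At least 2-fold higher in M337V cells were 5 of 140 detected Slc genes on day 3, 4 of 140 on day 4 and 7 of 141 on day 6, where 4.32%, 4.31% and 5.33% of all detected genes were. At least 2-fold lower were 1, 2 and 1, where 2.33%, 1.77% and 2.26% of all genes were. Slc7a3 differed by 1.996, 3.42 and 3.69 log2 on days 3, 4 and 6, and Slc39a12 by 2.92, 2.76 and 2.87. No tTA array detected Slc15a3, Slc7a7 or Slc11a1, so their folds by day are bounds. Slc15a3 was at least 1.96, 2.26 and 5.03-fold higher on days 3, 4 and 6, Slc7a7 at least 2.05, 1.71 and 5.18-fold, and Slc11a1 at least 1.24, 1.47 and 2.82-fold. The M337V signals of these 3 carriers were highest on day 6. In M337V cells the marker sums of microglia, oligodendrocyte lineage, ependymal and endothelial cells were highest on day 6 too. Those of astrocytes and neurons were highest on day 4 and that of fibroblasts on day 3. Each value rests on 1 array, and no link between carriers and markers was tested.

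**Figure D4:**
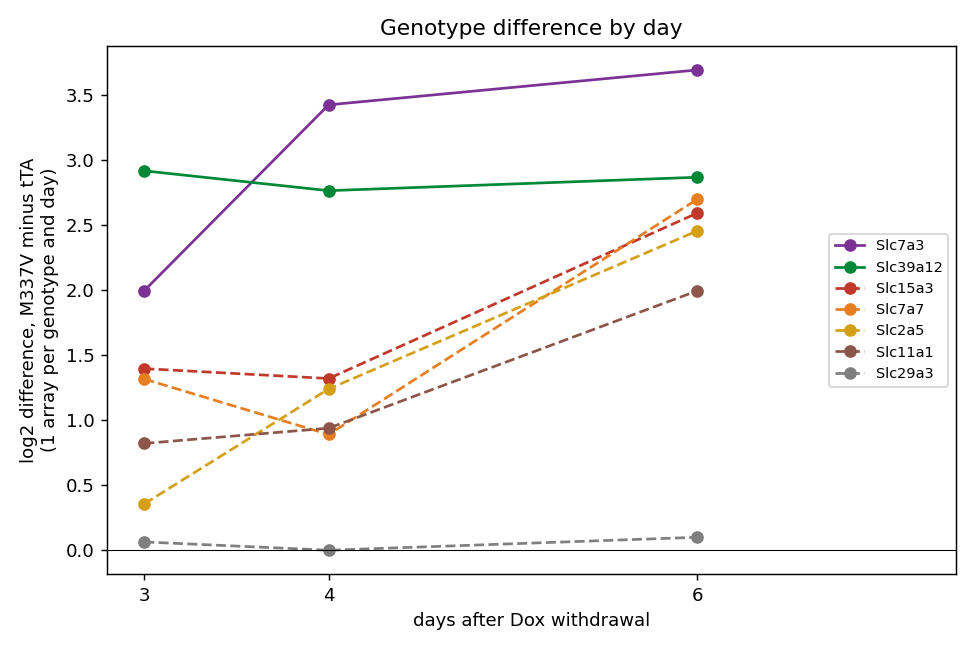
Genotype difference in log2 signal, M337V minus tTA, on days 3, 4 and 6 after Dox withdrawal (1 array per genotype and day). Solid lines are Slc7a3 and Slc39a12, and dashed lines the 5 tested carriers known from microglia. No tTA array detected Slc15a3, Slc7a7 or Slc11a1, nor Slc2a5 on days 4 and 6, so those points are measured differences against an undetected probe, and Slc29a3 stays between 0.00 and 0.10.

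The test of a trend in the genotype difference with day, a product of genotype and day in limma, called no gene of 142 and none of 7580. With an offset of 50, 7 Slc genes passed upward and 2 downward, or 6.34%, where 3.35% of all genes passed. At an unadjusted p under 0.05 there were 20 Slc genes, where 9.78% of all genes had such a p. Upward, the 4 smallest p were those of Slc2a5 at 0.69 ± 0.08 log2 per day (adjusted p = 0.133), Slc25a40 at 0.42 ± 0.08 (adjusted p = 0.2), Slc11a1 at 0.41 ± 0.09 (adjusted p = 0.262) and the zinc carrier Slc39a1 at 0.40 ± 0.09 (adjusted p = 0.275). Downward, they were those of the serotonin transporter Slc6a4 at -0.50 ± 0.12 (adjusted p = 0.279), Slc39a3 at -0.34 ± 0.09 (adjusted p = 0.349), the iodide transporter Slc5a5 at -0.29 ± 0.08 (adjusted p = 0.383) and the dicarboxylate carrier Slc25a10 at -0.34 ± 0.10 (adjusted p = 0.402). Slc25a40, Slc6a4 and Slc5a5 were detected on 2 arrays of each genotype, Slc2a5 on 1 tTA array and Slc11a1 on none, so their slopes include values not well above background. Slopes of 0.52 for Slc7a7, 0.504 for Slc7a3 and 0.43 for Slc15a3 were as steep, at unadjusted p of 0.0178, 0.0193 and 0.0081 (adjusted p over all genes above 0.05 in limma).

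Changes with day that both genotypes shared were few. From day 3 to day 6, 2 of 142 Slc genes passed, both upward, where 2.84% of all genes passed, 1.73% upward and 1.11% downward. Without background correction 9 passed upward and 2 downward, or 7.75%, where 10.5% of all genes passed. Slc25a29, a mitochondrial carrier of basic amino acids, was at 7.95, 8.50 and 8.84 in M337V cells, against 7.91, 8.34 and 8.82 in tTA cells. The change from day 3 to day 6 was 0.89 log2 in M337V cells, against 0.91 in tTA cells, and 0.90 ± 0.12 over both (adjusted p = 0.035). Slc14a1, the urea transporter of astrocytes, changed by 1.01 in M337V cells, against 0.73 in tTA cells, and 0.87 ± 0.14 over both (adjusted p = 0.0437). Days differ by 1 array per genotype, and day cannot be told apart from any difference between the cultures or arrays of a day.

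The Slc genes nearest to the genotype threshold were Slc16a13, Slc22a17 and Slc25a15 on the inner side, with adjusted p of 0.0468 to 0.0496. On the outer side they were Slc66a3, Slc7a5 and Slc2a5, with 0.0557 to 0.0614. Slc genes with several probes numbered 8, of which Slc14a2, a urea transporter, had a second probe that could be tested. Its brighter probe, detected on 2 arrays of each genotype, was at least 1.21-fold lower (adjusted p = 0.322).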

How the data were processed

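Total RNA was hybridised to 6 Illumina rat beadchips. The submitters' processing notes name GenomeStudio, with no version. The deposited table of raw values holds, per the file headers, a non-normalized mean signal intensity per probe and array on a linear scale and a detection p-value against negative controls. A second deposited table holds log2 values. They match the log2 signal after subtraction of an upper quartile per array (within 0.00238), up to a value per probe whose centring is unknown; its column medians were -0.15 to 0.07.

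Values were computed with limma 3.58.1 in R 4.3.3 (tables in Python 3.11.15 with pandas 2.3.3): normexp background correction from the detection p-values, an offset of 16, quantile normalization and log2. Probes were kept where 3 or more arrays gave a detection p under 0.05 (10478), and the brightest probe stood for each of 7580 genes. The genotype and day 6 minus day 3 differences came from 1 fit with day as a factor, and the trend from a fit with the product of genotype and day; p-values were adjusted over all genes (Benjamini-Hochberg). Day pairs the arrays by the labels; deviations of same-day arrays correlated at 0.44, 0.08 and 0.42 on days 3, 4 and 6. Offset and background correction shrink or widen differences of dim genes, and between 1 array per genotype and day there is no replicate. Tested on simulated data for the genotype comparison over 7580 genes with 200 changed, the fit recovered 8 at a log2 change of 0.5, 197 at 1 and 200 at 2, with 0, 18 and 17 false calls.

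Substrate groups were assigned by family, and Slc49, Slc66 and 2 genes that are only named after a carrier were placed after the files were seen. The members and lists were chosen with earlier results of these data known. Named genes were taken by a rule: the 12 largest rises and falls with 1 sign on all days, up to 4 of the largest differences per group, called day effects, the 4 smallest p for trends in each direction, a few well-known carriers, tested members of the cell-type and lysosomal lists, and the 3 genes nearest to the threshold on each side. All 32 called genes are named beyond that rule, after their values were seen. Promoters are RefSeq's on GRCr8, matched by symbol, 221 of 277 genes and 113 of 142 tested. Slc12a2 and Slc25a18 were not analysed here. Alternatives covered background correction, offset, scaling, the deposited values, probe filters, variance model, each day left out and the day term.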

Additional observations from a re-analysis of the deposited data

Results flagged for a closer look

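Among Slc genes below the 3-array minimum, Slc2a10, Slc43a3 and Slc8a3 were detected on 2 M337V arrays and on no tTA array. They were set aside as untested data with signal above that of the tTA arrays. Against the lowest detected signal of the tTA arrays, their M337V means were at least 1.01-fold, 1.06-fold and 1.07-fold higher. Slc18a1 and Slc4a8 were also seen on 2 M337V arrays and no tTA array, with no bound above 1. The mirror case, 2 tTA arrays and no M337V array, held for Slc26a2 and Slc26a5, at least 1.08-fold and 1.05-fold lower in M337V cells. Slc2a10 is a facilitative glucose transporter, Slc43a3 a carrier of the amino acid and purine base family and Slc8a3 a sodium calcium exchanger. The second probe of Slc14a2, which does not represent the gene in the main values, was detected on 3 tTA arrays and on no M337V array. It was at least 1.39-fold lower in M337V cells (measured difference -0.82 log2, adjusted p = 0.0183 in limma over all kept probes), against at least 1.21-fold for the brighter probe, which did not pass. The second probe met the detection minimum only through the tTA arrays, so it had to differ and does not count as support.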

How the results depend on the processing

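The genotype difference was recomputed under 15 alternatives. Of the 32 called Slc genes, 6 passed in every alternative that tested them (Slc7a3, Slc39a12, Slc15a3, Slc11a1, Slc25a21 and Slc39a13), and 24 passed in at least 10. Those passing in under 8 were Slc16a13, Slc22a17, Slc25a15, Slc25a35, Slc25a5 and Slc26a1. Against 11 rises and 21 falls, median scaling gave 12 falls, and leaving out a day gave 6 to 8 rises and 1 to 15 falls. Over all genes, with 739 rises and 747 falls, median scaling gave 460 falls. Leaving out a day gave 384 to 583 rises and 247 to 472 falls over all genes. The arrays pair by day. Without that replicate block there were 6 rises and 14 falls, all among the 32, where 496 of all genes rose and 470 fell. Among genes detected on all 6 arrays 22.2% of Slc calls were rises, against 34.4%. All genes had 608 rises and 879 falls there, against 739 and 747. From day 3 to day 6, the 2 rises became 9 without background correction, 7 with an offset of 50, 1 with median scaling, 8 with the deposited values, 1 with no filter, 5 over genes on all 6 arrays and 9 with a variance trend. Falls with day, 0 in the main values, became 2 without background correction, 1 with an offset of 50, 1 with the deposited values, 1 over genes on all 6 arrays, 3 with a variance trend and 1 with day as a number. The trend of the genotype difference had 5 rises and 1 fall called without background correction, 7 and 2 with an offset of 50, 4 and 2 with the deposited values, and 4 rises with a variance trend. In that order 3.27%, 3.35%, 2.49% and 2.55% of all genes were called, where Slc genes had 4.23%, 6.34%, 4.23% and 2.82%. At a 1.5-fold threshold 12 Slc genes were higher and 16 lower on day 3, 9 and 19 on day 4, and 12 and 18 on day 6. None of the causes was tested.

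Direction turned only for genes that were not called. With cyclic loess, log2 differences that turned were Slc19a1 at 0.071, Slc29a1 at 0.0057, Slc39a1 at 0.036 and Slc46a1 at 0.017. With median scaling they were Slc17a5 at 0.021, Slc19a1 at 0.083, Slc25a4 at -0.10, Slc29a1 at 0.019, Slc39a1 at 0.055 and Slc46a1 at 0.039. With the deposited values they were Slc25a4 at -0.12, Slc25a40 at -0.032, Slc29a3 at -0.018, Slc30a10 at -0.075, Slc4a1ap at -0.027, Slc5a5 at -0.067 and Slc7a1 at -0.031. Without day 3 they were Slc15a2 at -0.034, Slc16a1 at 0.012, Slc25a4 at -0.026, Slc39a1 at 0.14, Slc46a1 at 0.10, Slc4a1ap at -0.049 and Slc5a5 at -0.081. Without day 4 they were Slc17a5 at 0.060, Slc19a1 at 0.0080, Slc29a1 at 0.014, Slc39a1 at 0.081 and Slc6a4 at 0.0025. Without day 6 they were Slc25a10 at 0.17, Slc25a40 at -0.29, Slc30a10 at -0.16, Slc39a3 at 0.058, Slc46a1 at 0.034, Slc52a2 at -0.24 and Slc6a4 at 0.27. Over all named genes the alternatives gave 916 values with the same direction and side of the threshold, 97 that lost a call, 46 that gained one and 36 that turned. Signal over background limits the 135 untested genes and the dim ones.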
